A study of Mus musculus with 28 samples.

Results

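Socs1, Socs2, Socs3, Cish, Pim1, Pim2, Pim3, Stat5a and Stat5b form a group of 9 genes that carry STAT5 signaling or are induced by it, and all 9 were found by gene symbol among the 25251 genes of the table. They were followed in 28 RNA sequencing libraries from bone endothelial cells (ECs), mesenchymal stromal cells (MSCs) and bone marrow mononuclear cells (MNCs) of mice aged 8 to 10 wk. The mice had the strain label C57 BL6 and carried either wild-type Flt3 (Flt3+/+) or the Flt3-ITD knock-in on both alleles (Flt3ITD/ITD), so the mutant receptor was made wherever the endogenous Flt3 gene is active. No mouse received any treatment that the labels name, and the sex was not given in the sources used here. From collagenase-treated bone, ECs were sorted as CD31+ cells and MSCs as Sca1+ cells negative for CD31 and CD166, both after CD45 and Ter119 positive cells had been gated out, with 100 cells per library and 5 libraries per genotype, whereas MNC libraries were made from 200 cells, with 4 per genotype. The group was put together with results of these data in view, and Socs2 was singled out for its difference between the genotypes in MNCs. That difference is therefore given below by its values and a fitted fold change, with no p-value and no call.

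Cytokine receptors activate Janus kinases, which phosphorylate STAT5A and STAT5B. The phosphorylated STAT5 proteins pair, enter the nucleus and switch on target genes, among which are the inhibitors Cish and Socs2. SOCS proteins bind activated receptors or Janus kinases and dampen the signal, so their RNA is often read as a trace of recent cytokine signaling, and SOCS3 is best known as the inhibitor of signals that pass through gp130 and STAT3. PIM kinases are active as soon as they are made and promote survival and growth, so their output is set largely by the amount of RNA and protein. FLT3 with an internal tandem duplication signals without ligand and, unlike the wild-type receptor, strongly activates STAT5 in hematopoietic cells.

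STAT dimers recognize the palindrome TTCNNNGAA, which reads the same on both strands. It was searched for in RefSeq promoter windows (GRCm38.p6) of 300 bases, 250 before and 50 after each annotated start. Windows were at hand for 8 of the 9 genes, all but Socs2. Cish held 2 matches and Socs3 held 1, and the windows of the other 6 genes held none. Of 32851 windows of that length, 8.30% held at least 1 match and 0.457% at least 2. Counted by gene, as the members are, 2582 of 27025 genes had a window with at least 1 match. The stretches around the matches are shown because Cish and Socs3 are the members whose windows hold the motif, with the matches in capitals, each read 5′ to 3′ on the strand of its gene (Cish, chr9:107296654-107296683, plus strand; Socs3, chr11:117969507-117969525, minus strand). A match is a description of these letters and not evidence of binding.
Cish: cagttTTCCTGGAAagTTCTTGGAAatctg
Socs3: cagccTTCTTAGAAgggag

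The depth of the libraries ranged from 6377013 to 33880743 total counts, and counts of up to 3 in a library were treated as not told from 0, a limit for counting error only. Levels are given as RPKM, which corrects read counts for transcript length and sequencing depth. The populations carried their defining markers. Cdh5, the endothelial cadherin, was at 239 ± 10.3 RPKM in Flt3+/+ ECs (SD, n = 5) and at 0.0800 in Flt3+/+ MSCs, and Pdgfra was at 82.5 ± 16.9 in Flt3+/+ MSCs and at 0.404 in Flt3+/+ ECs. Other listed mesenchymal genes did not all separate these populations. Pdgfrb was at 16.6 RPKM in Flt3+/+ MSCs and 1.25 in Flt3+/+ ECs. Cxcl12 (223 and 175) and Lepr (45.9 and 39.1) were closer, and Ly6a was lower in MSCs (2916 and 5229). Ptprc, which encodes CD45, was at 134 ± 9.10 in Flt3+/+ MNCs (n = 4) and at 0.0160 in Flt3+/+ ECs. The summed RPKM of 5 leukocyte markers was 86.7 in Flt3ITD/ITD EC library 2 and 47.7 in Flt3ITD/ITD MSC library 5, against 0.480 to 14.3 in the other EC and MSC libraries. A sum of 5 neutrophil markers was 26181 and 5667 RPKM in these libraries. It was also raised in Flt3+/+ EC library 1 (1242) and Flt3ITD/ITD MSC library 3 (454), against at most 85.3 in the remaining EC and MSC libraries. Flt3+/+ EC library 1 held 100 RPKM of erythroid markers as well. Flt3 itself, the mutated gene, lay at 2.53 to 6.96 RPKM in Flt3+/+ MNCs and at 6.91 to 14.8 in Flt3ITD/ITD MNCs. In ECs it reached at most 1.37 and in MSCs at most 0.220, in Flt3ITD/ITD libraries in both cases. The RPKM table counts the gene as a whole and does not separate the mutant from the wild-type transcript.

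Socs2 (chromosome 10, 95383903 to 95417321 in GRCm38) was the member with the highest level in ECs, and its level in MNCs differed between the genotypes. Socs2 stood at 37.0, 48.0, 41.4, 99.6 and 120 RPKM in the 5 Flt3+/+ EC libraries and at 80.7, 54.7, 71.1, 100.1 and 86.3 in the 5 Flt3ITD/ITD EC libraries. In MSCs, the Flt3+/+ libraries held 41.8, 38.9, 36.5, 30.5 and 46.8 RPKM, and the Flt3ITD/ITD libraries held 54.1, 27.3, 37.1, 32.6 and 44.9. All 20 EC and MSC libraries thus held at least 27.3 RPKM of this feedback inhibitor of growth hormone and STAT5 signaling, and the genotypes overlapped in both populations. In MNCs, the 4 Flt3+/+ libraries were at 1.2, 1.86, 0.260 and 1.06 RPKM, and the 4 Flt3ITD/ITD libraries were at 16.4, 12.2, 18.4 and 18.3. Every Flt3ITD/ITD MNC library was above every Flt3+/+ MNC library and below every EC and MSC library. By group mean, Socs2 was higher than 94.9% of all genes in Flt3+/+ ECs and 92.5% in Flt3+/+ MSCs, but higher than only 54.0% in Flt3+/+ MNCs and 83.7% in Flt3ITD/ITD MNCs.

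**Figure D1:**
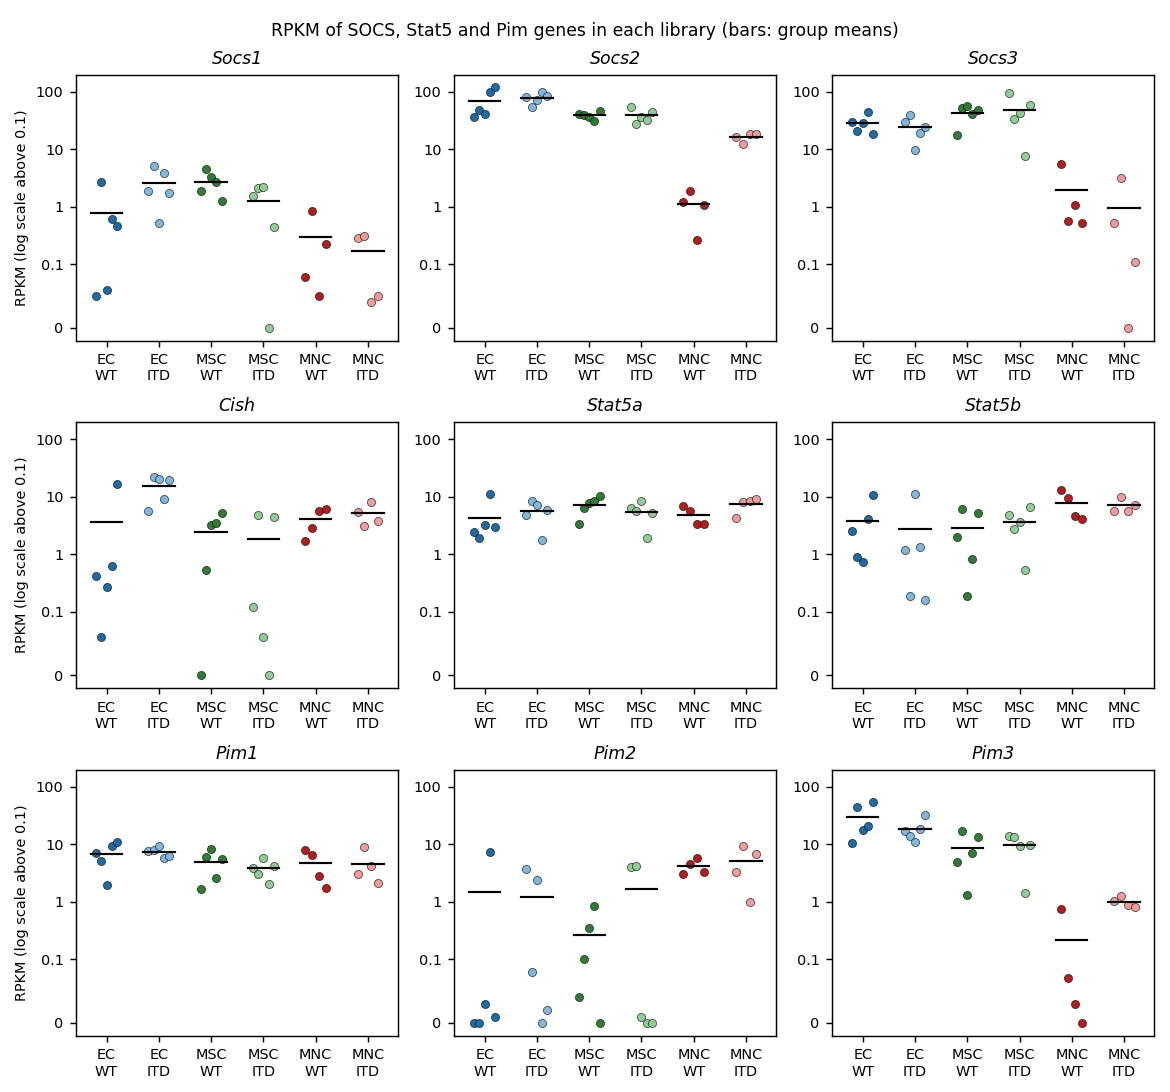
RPKM of each of the 9 genes (vertical axis, logarithmic above 0.1 RPKM) in each library of ECs, MSCs and MNCs from Flt3+/+ (WT, dark) and Flt3ITD/ITD (ITD, light) mice. Points are single libraries, in the order of their numbers, and bars are group means. The 4 Flt3+/+ MNC libraries are the lowest of all for Socs2, and the 4 Flt3ITD/ITD MNC libraries lie between them and the EC and MSC libraries.

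In MNCs, mean Socs2 was 1.10 ± 0.657 RPKM in Flt3+/+ and 16.3 ± 2.88 RPKM in Flt3ITD/ITD (SD, n = 4 each), a ratio of 14.9. The counts behind these means were 53, 76, 9 and 54 in Flt3+/+ libraries and 701, 557, 825 and 700 in Flt3ITD/ITD libraries. The log2 fold change fitted by edgeR's quasi-likelihood model was 3.72 (SE 0.44), and it ran from 3.43 to 4.0 when 1 library was left out at a time. For other genes and comparisons, a gene was called when its Benjamini-Hochberg adjusted p-value over all tested genes was below 0.1 and its mean RPKM differed by at least 1 on the log2 scale. By that rule 0.0144% of all 13926 tested genes were called between the genotypes in MNCs. Socs1 had too few counts in MNCs to be tested.

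Markers of several cell types also differed in level between the genotypes in MNCs. The summed RPKM of 5 progenitor genes (Kit, Cd34, Myb, Flt3 and Meis1) was 41.9, 67.2, 62.1 and 44.2 in Flt3+/+ MNC libraries and 89.4, 66.0, 88.1 and 166 in Flt3ITD/ITD MNC libraries, a ratio of means of 1.90. The ranges touched, as Flt3ITD/ITD library 2 was below Flt3+/+ library 2. The single genes of the list had ratios of 1.29 (Myb and Meis1), 1.91 (Kit), 2.29 (Flt3) and 2.999 (Cd34). The 5 neutrophil markers summed to 155559, 137213, 37583 and 50031 RPKM in Flt3ITD/ITD libraries 1 to 4 and to 143444 or more in every Flt3+/+ library. The sum was carried by S100a8, S100a9 and Ngp, genes of maturing neutrophils, whose means were 79304, 33892 and 41431 RPKM in Flt3+/+ and 45580, 18072 and 28417 RPKM in Flt3ITD/ITD MNCs. Mpo and Elane, granule genes of earlier myeloid cells, had the opposite order, with 505 and 596 RPKM in Flt3+/+ and 1612 and 1415 RPKM in Flt3ITD/ITD MNCs. The 5 B cell markers summed to 261 to 602 RPKM in Flt3+/+ and 161 to 464 RPKM in Flt3ITD/ITD MNCs. The 3 erythroid markers in the table summed to 3.05 to 1004 RPKM in Flt3+/+ and 34.6 to 158 RPKM in Flt3ITD/ITD MNCs, so that the genotypes overlapped for both lists. Fewer cells of a type and less RNA per cell cannot be told apart in bulk libraries, and the part of these cell types in the Socs2 result was not tested.

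The MNC libraries also fell apart by number. A sum of 8 genes that respond to tissue dissociation (Fos, Fosb, Jun, Junb, Egr1, Atf3, Ier2 and Dusp1) was 294 to 475 RPKM in libraries 1 and 2 of both genotypes and 19.2 to 32.2 RPKM in libraries 3 and 4. Within libraries 1 and 2, mean Socs2 was 1.53 RPKM in Flt3+/+ and 14.3 RPKM in Flt3ITD/ITD, a ratio of 9.35. Within libraries 3 and 4, the means were 0.660 and 18.3 RPKM, a ratio of 27.8. As no Flt3ITD/ITD library overlapped a Flt3+/+ library, the direction within each pair was given by the pooled values, and the size of the ratio is what differed between the pairs.

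**Figure D2:**
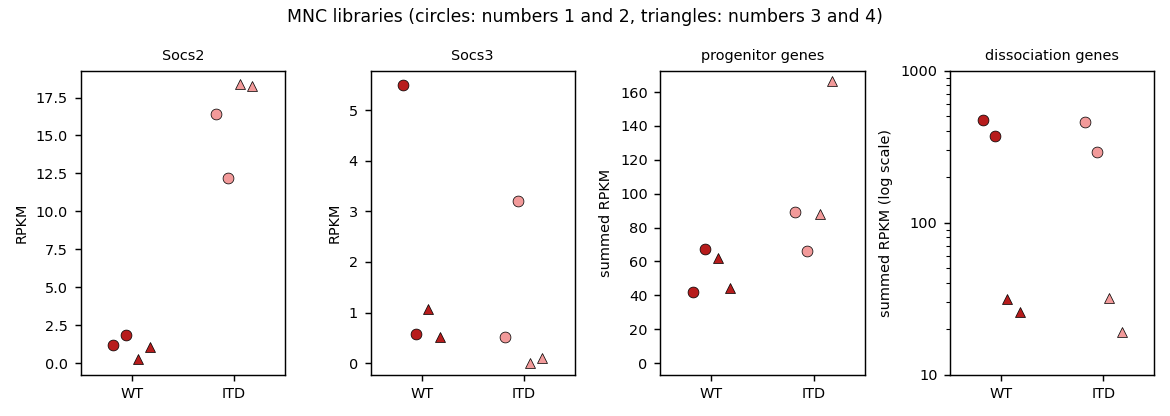
RPKM of Socs2 and Socs3, and summed RPKM of 5 progenitor genes and of 8 dissociation genes (logarithmic axis), in the 4 Flt3+/+ (WT) and 4 Flt3ITD/ITD (ITD) MNC libraries. Circles are libraries 1 and 2 and triangles are libraries 3 and 4. Socs2 is at most 1.86 RPKM in Flt3+/+ and at least 12.2 RPKM in Flt3ITD/ITD libraries, and the dissociation genes separate libraries 1 and 2 from libraries 3 and 4 in both genotypes.

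Between populations of Flt3+/+ mice, Socs3 and Pim3 were higher in both kinds of bone-derived cells than in MNCs. Socs2 was left out of the counts against MNCs, because it was chosen from the MNC libraries. In ECs, 2 of the 8 other members were called higher than in MNCs (Socs3 and Pim3) and none lower, where 20.2% of 15616 tested genes were called higher and 37% in either direction. In MSCs, 3 of these 8 were called higher than in MNCs (Socs1, Socs3 and Pim3) and none lower, where 19.7% of all tested genes were called higher and 35.9% in either direction. The median log2 fold change of the 8 genes was 0.07 for ECs over MNCs and 0.41 for MSCs over MNCs, and over all tested genes it was 0.14 and 0.05. Between ECs and MSCs, 0 of 9 were called by edgeR and 0 by DESeq2, with 0 at an unadjusted p-value below 0.05 in edgeR, where 24.4% of all tested genes were called by edgeR and 32% had such a p-value. DESeq2 called 5019 genes in all between ECs and MSCs. The MNC libraries also differed from the others in the number of cells and in coming from marrow, so the effect of these cannot be told apart from that of the population. The dissociation genes summed to 947 to 3831 RPKM in EC and MSC libraries, above all MNC libraries, and their part in these differences was not tested.

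Socs2 was 61.8-fold higher in Flt3+/+ ECs than in Flt3+/+ MNCs by the fitted log2 fold change of 5.95 (SE 0.54). In Flt3+/+ MSCs it was 38.7-fold higher than in MNCs (log2 5.27, SE 0.52). In Flt3ITD/ITD mice, the difference was 5.20-fold for ECs (log2 2.38, SE 0.26) and 3.04-fold for MSCs (log2 1.61, SE 0.25). These values use the MNC libraries of both genotypes from which Socs2 was singled out, so they are a description and no p-value is given. The means of Socs2 had the order ECs, MSCs, MNCs in both genotypes.

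Socs2 in ECs and MSCs differed less clearly. In Flt3+/+ libraries, the log2 fold change of ECs over MSCs was 0.68 (95% interval -0.17 to 1.52, edgeR adjusted p = 0.264), and the groups overlapped. In Flt3ITD/ITD libraries it was 0.77 (95% interval 0.29 to 1.25, edgeR adjusted p = 0.0300), and the lowest EC library (54.7 RPKM) was just above the highest MSC library (54.1 RPKM). Here Socs2 was the 1 of 9 members called, where 23% of all tested genes were called. Without Flt3ITD/ITD EC library 2 and MSC library 5, which had the most leukocyte RNA, the Socs2 difference was 0.90 (edgeR adjusted p = 0.0358). The 2 genotypes were not shown to differ, as the test of the difference between their contrasts gave 0.10 on the log2 scale (SE 0.40, edgeR adjusted p = 0.99998).

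**Figure D3:**
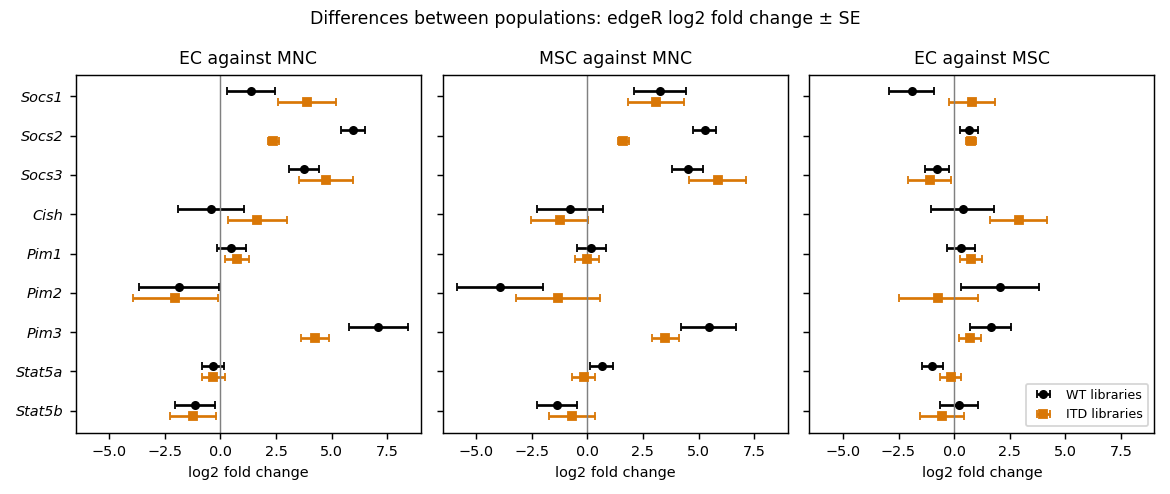
Log2 fold change (horizontal axis) between populations for each of the 9 genes, fitted by edgeR separately in Flt3+/+ (WT, black circles) and Flt3ITD/ITD (ITD, orange squares) libraries. Bars are standard errors. Socs2, Socs3 and Pim3 lie to the right of 0 against MNCs in both genotypes, and for Socs2 the Flt3ITD/ITD points (2.38 and 1.61) lie to the left of the Flt3+/+ points (5.95 and 5.27).

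Socs3 had its highest level in MSCs and was near 0 in most MNC libraries. It was at 17.8, 52.1, 57.0, 41.5 and 49.0 RPKM in Flt3+/+ MSCs and at 94.6, 33.3, 43.5, 7.72 and 58.4 RPKM in Flt3ITD/ITD MSCs. ECs held 29.6, 20.8, 28.9, 45.3 and 18.8 RPKM in Flt3+/+ libraries and 30.3, 39.3, 9.81, 19.5 and 24.8 RPKM in Flt3ITD/ITD libraries. MNC levels were 5.51, 0.570, 1.06 and 0.520 RPKM in Flt3+/+ libraries and 0.510, 3.2, 0 and 0.110 RPKM in Flt3ITD/ITD libraries. The single high MNC library of each genotype, number 1 in Flt3+/+ and number 2 in Flt3ITD/ITD, was among the MNC libraries with high dissociation genes, and the part of these genes in its Socs3 level was not tested. In Flt3+/+ mice Socs3 was higher in ECs than in MNCs by 3.74 on the log2 scale (SE 0.68, edgeR adjusted p = 0.000788) and in MSCs by 4.51 (SE 0.70, edgeR adjusted p = 0.000228). Without Flt3+/+ MNC library 1, these differences were 5.07 and 5.82. In Flt3ITD/ITD mice they were 4.75 (SE 1.22, edgeR adjusted p = 0.0102) and 5.86 (SE 1.29, edgeR adjusted p = 0.00368).

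Pim3, a kinase of the PIM family, had the largest difference of the 9 genes between ECs and MNCs in Flt3+/+ mice. It was at 10.5, 45.1, 17.4, 21.2 and 54.9 RPKM in Flt3+/+ ECs and at 16.8, 14.1, 10.9, 18.7 and 31.98 RPKM in Flt3ITD/ITD ECs. In MSCs it was at 4.87, 16.7, 1.33, 7.07 and 13.6 RPKM in Flt3+/+ libraries and at 13.7, 13.6, 9.43, 1.41 and 9.57 RPKM in Flt3ITD/ITD libraries. MNC libraries held 0.760, 0.0700, 0.0300 and 0 RPKM in Flt3+/+ and 1.04, 1.27, 0.880 and 0.810 RPKM in Flt3ITD/ITD. The highest MNC library (1.27 RPKM) was just below the lowest EC or MSC library (1.33 RPKM). The share of all genes separated in this way was not computed, so nothing is read from it. Of the 4 Flt3+/+ MNC libraries, 3 were at or under 3 counts. The fitted log2 fold change in Flt3+/+ mice was 7.08 for ECs over MNCs (SE 1.33, edgeR adjusted p = 0.00102) and 5.45 for MSCs over MNCs (SE 1.23, edgeR adjusted p = 0.00365). It rose to 9.70 and 8.07 without Flt3+/+ MNC library 1. In Flt3ITD/ITD mice the values were 4.23 (SE 0.63, edgeR adjusted p = 0.000244) and 3.50 (SE 0.60, edgeR adjusted p = 0.000669).

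Pim3 was the other member whose genotypes did not overlap in MNCs. The Flt3+/+ counts were 36, 3, 1 and 0 and the Flt3ITD/ITD counts were 48, 63, 43 and 33, so that the highest Flt3+/+ library held more counts than the lowest Flt3ITD/ITD library before scaling for depth. The fitted log2 fold change was 2.12 (SE 1.10) and Pim3 was not called. It was 4.71 without Flt3+/+ MNC library 1. Of the 7 tested members other than Socs2, 1 (Pim3) lay wholly higher in Flt3ITD/ITD MNCs, as did 5.72% of all tested genes.

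The remaining members did not separate the genotypes in MNCs. Cish was at 1.67 to 6.17 RPKM in Flt3+/+ MNCs and at 3.11 to 8.21 RPKM in Flt3ITD/ITD MNCs, a log2 fold change of 0.05 (SE 0.54). Stat5a was at 3.31 to 6.91 RPKM and at 4.22 to 9.29 RPKM, a log2 fold change of 0.48 (SE 0.28). Stat5b was at 4.07 to 13.2 RPKM and at 5.59 to 9.98 RPKM, a log2 fold change of -0.27 (SE 0.33). The RNA of the kinases Pim1 (-0.12, SE 0.57) and Pim2 (0.05, SE 0.60) also had log2 fold changes within 1 SE of 0. Socs3 had -1.19 (SE 1.34), a value that was 0.09 without Flt3+/+ library 1 and -3.24 without Flt3ITD/ITD library 2.

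**Figure D4:**
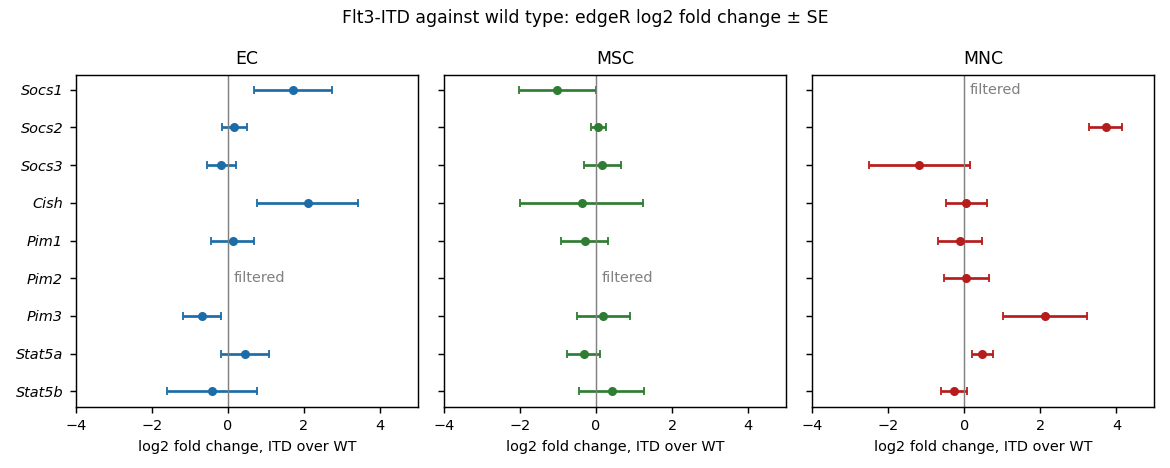
Log2 fold change of Flt3ITD/ITD over Flt3+/+ libraries (horizontal axis) for each of the 9 genes in ECs, MSCs and MNCs, fitted by edgeR, with bars for the standard error. Genes with too few counts to be tested are written as filtered. Socs2 is at 3.72 in MNCs and within 1 standard error of 0 in ECs and MSCs.

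In ECs, 0 of the 8 tested members were called between genotypes by edgeR, with 0 at an unadjusted p-value below 0.05 and 0 called by DESeq2, and 0.0081% of 12351 tested genes were called by edgeR and 4.99% had such an unadjusted p-value. In MSCs, 0 of 8 were called by edgeR, with 0 at an unadjusted p-value below 0.05 and 0 called by DESeq2, and 0.0295% of 13574 tested genes were called by edgeR and 4.24% had such an unadjusted p-value. Pim2 had too few counts to be tested in either. DESeq2 called 362 genes in all in ECs and 193 in MSCs. The interval for Socs2 was narrow in MSCs, with a log2 fold change of 0.06 (95% interval -0.39 to 0.52), and wider in ECs, with 0.17 (95% interval -0.57 to 0.91). Neither interval reached the log2 change of 1 that a call required. In both populations, the intervals of all other tested members were wider than that of Socs2 and did not exclude such a change. Those of Socs1 and Cish were far wider, as was that of Stat5b (95% interval -3.05 to 2.20 in ECs and -1.45 to 2.27 in MSCs).

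Cish, a feedback inhibitor and classic STAT5 target of the SOCS family, had the largest fitted difference between genotypes in ECs. It was at 0.420, 0.0600, 0.270, 0.630 and 16.4 RPKM in Flt3+/+ ECs and at 5.55, 22.3, 20.3, 9.22 and 19.8 RPKM in Flt3ITD/ITD ECs. All Flt3ITD/ITD EC libraries were above 4 of the 5 Flt3+/+ libraries, and Flt3+/+ library 5 lay among the Flt3ITD/ITD values. The log2 fold change was 2.10 (SE 1.32, 95% interval -0.82 to 5.02, edgeR adjusted p = 0.9998). Without Flt3+/+ EC library 5 it was 5.52 (edgeR adjusted p = 0.307), and without Flt3ITD/ITD EC library 2, which had leukocyte RNA, it was 1.92. The difference thus did not pass the test with or without these libraries.

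Cish in ECs also moved with depth. The 4 EC libraries with 26131330 to 33880743 total counts held 16.4 to 22.3 RPKM of Cish, and the 6 with 6377013 to 22871938 held 0.0600 to 9.22 RPKM. Flt3+/+ library 5 was the deepest of all EC libraries. Among the 6 shallower libraries, the 2 of Flt3ITD/ITD mice, with 6377013 and 11939311 counts, had 5.55 and 9.22 RPKM, and the 4 of Flt3+/+ mice, with 13155871 to 22871938, had at most 0.630 RPKM. RPKM are already scaled to the library total, and the part of depth in the Cish levels was not tested.

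**Figure D5:**
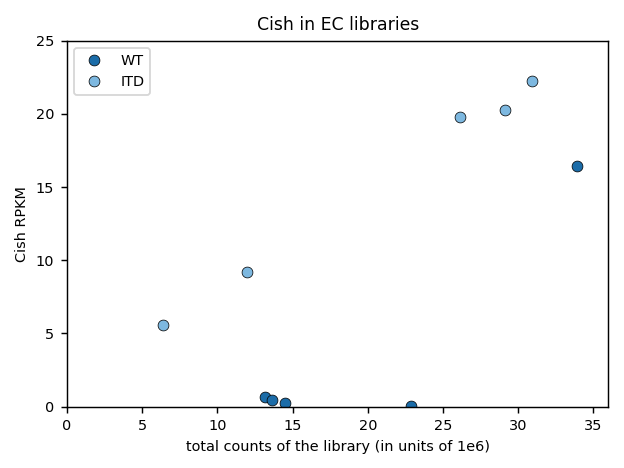
Cish RPKM (vertical axis) against the total counts of the library (horizontal axis) for the 5 Flt3+/+ (WT) and 5 Flt3ITD/ITD (ITD) EC libraries, each a point. The 4 deepest libraries, 3 of them Flt3ITD/ITD, hold 16.4 to 22.3 RPKM, and the 4 other Flt3+/+ libraries lie below 1 RPKM.

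In MSCs and between populations, Cish varied widely. MSC libraries held 0, 0.520, 3.19, 3.54 and 5.12 RPKM in Flt3+/+ and 0.120, 4.73, 0.0600, 0 and 4.38 RPKM in Flt3ITD/ITD, so that each genotype had libraries at or near 0. In Flt3ITD/ITD mice every EC library (5.55 RPKM or more) was above every MSC library (4.73 RPKM or less), with a log2 fold change of 2.91 (SE 1.28, edgeR adjusted p = 0.140). In that comparison, 9.93% of all tested genes lay wholly higher in ECs. In Flt3+/+ mice, Cish differed between ECs and MNCs by -0.41 (SE 1.48, edgeR adjusted p = 0.862), but without Flt3+/+ EC library 5 it was lower in ECs by -3.80 (edgeR adjusted p = 0.0413).

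Socs1, the SOCS member best known for restraining interferon signaling, was low throughout. It was at 0.05, 2.74, 0.0600, 0.620 and 0.460 RPKM in Flt3+/+ ECs and at 1.90, 5.10, 0.520, 3.85 and 1.73 RPKM in Flt3ITD/ITD ECs. In MSCs it was at 1.91, 4.48, 3.28, 2.70 and 1.24 RPKM in Flt3+/+ and at 1.56, 2.12, 2.23, 0 and 0.440 RPKM in Flt3ITD/ITD, and no MNC library exceeded 0.840 RPKM. The mean was higher in Flt3ITD/ITD than in Flt3+/+ ECs but lower in Flt3ITD/ITD than in Flt3+/+ MSCs, with overlapping libraries in both. The log2 fold change between genotypes was 1.71 in ECs (SE 1.02, edgeR adjusted p = 0.9998) and -1.02 in MSCs (SE 1.01, edgeR adjusted p = 0.999). The test of the difference between ECs and MSCs gave 2.75 (SE 1.55, edgeR adjusted p = 0.833), and 0 of the 9 members passed it by edgeR, with 0 at an unadjusted p-value below 0.05 and 0 by DESeq2, where 0.00659% of 15174 tested genes passed by edgeR and 7.09% had such an unadjusted p-value. By DESeq2, 449 genes in all passed it.

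Among populations, Socs1 was higher in Flt3+/+ MSCs than in Flt3+/+ MNCs by 3.26 on the log2 scale (SE 1.17, edgeR adjusted p = 0.0472). This call was lost without Flt3+/+ MNC library 1 (edgeR adjusted p = 0.118), library 3 (0.125) or library 4 (0.116), and the difference was 4.41 without library 2. In Flt3ITD/ITD mice, 3 of the 8 members other than Socs2 were called higher than in MNCs in ECs and 3 of 8 in MSCs, in both cases Socs1, Socs3 and Pim3, where 17.9% and 16.5% of all tested genes were called higher. Socs1 itself was higher by 3.89 in Flt3ITD/ITD ECs (SE 1.29, edgeR adjusted p = 0.0377) and by 3.09 in Flt3ITD/ITD MSCs (SE 1.24, edgeR adjusted p = 0.0841). Between Flt3+/+ ECs and MSCs it differed by -1.90 (SE 1.01, edgeR adjusted p = 0.217), and by -3.38 (edgeR adjusted p = 0.0284) without Flt3+/+ EC library 2.

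Pim1 was at a similar level in the 6 groups. Its group means ran from 3.81 ± 1.41 RPKM in Flt3ITD/ITD MSCs to 7.36 ± 1.42 RPKM in Flt3ITD/ITD ECs (SD, n = 5 each), and single libraries from 1.69 to 10.9 RPKM. No comparison of populations or genotypes called Pim1. In Flt3+/+ MNCs, it was at 7.96 and 6.44 RPKM in libraries 1 and 2, those with high dissociation genes, and at 2.77 and 1.72 RPKM in libraries 3 and 4. In Flt3ITD/ITD MNCs, the same library numbers gave 3.02, 9.05, 4.20 and 2.13 RPKM.

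Pim2, unlike Pim3, had its highest mean in MNCs in both genotypes. MNC libraries held 3.08 to 5.77 RPKM in Flt3+/+ and 0.970 to 9.41 RPKM in Flt3ITD/ITD. Flt3+/+ MSCs held 0 to 0.850 RPKM, below all Flt3+/+ MNC libraries, and 4 of the 5 Flt3+/+ EC libraries held at most 0.0300 RPKM and the fifth 7.22 RPKM. The difference of Flt3+/+ MSCs from MNCs was -3.93 (SE 1.93, edgeR adjusted p = 0.145), where 20% of all tested genes lay wholly lower in MSCs. It was not called by edgeR without a block for library number but was by DESeq2 (-3.98, DESeq2 adjusted p = 0.0729). In Flt3+/+ ECs, Pim2 differed from MNCs by -1.87 (edgeR adjusted p = 0.464), and by -8.28 (edgeR adjusted p = 0.00208) without EC library 4. Without that library, Pim2 was also lower in Flt3+/+ ECs than in Flt3+/+ MSCs, by -4.40 (edgeR adjusted p = 0.0466), and lower in MSCs than in MNCs, by -3.89 (edgeR adjusted p = 0.0229).

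RNA of the transcription factors themselves was found in all 6 groups, and the mean of Stat5b was highest in MNCs in both genotypes. Group means of Stat5a ran from 4.30 ± 3.76 RPKM in Flt3+/+ ECs (SD, n = 5) to 7.55 ± 2.26 RPKM in Flt3ITD/ITD MNCs (SD, n = 4). Group means of Stat5b ran from 2.77 ± 4.64 RPKM in Flt3ITD/ITD ECs (SD, n = 5) to 7.82 ± 4.34 RPKM in Flt3+/+ MNCs (SD, n = 4). The Stat5b mean was 7.12 RPKM in Flt3ITD/ITD MNCs and at most 3.77 RPKM in the EC and MSC groups. Against Flt3+/+ MNCs, its log2 fold change was -1.15 (SE 0.90) in Flt3+/+ ECs and -1.38 (SE 0.91) in Flt3+/+ MSCs. Neither gene was called between genotypes or populations when all libraries were used without a block for library number. Without Flt3+/+ EC library 4, the highest for Stat5a (11.0 RPKM), Stat5a was lower in Flt3+/+ ECs than in Flt3+/+ MSCs by -1.58 (edgeR adjusted p = 0.0157), against -0.98 (95% interval -2.01 to 0.05, edgeR adjusted p = 0.178) with all libraries. Stat5b spread most in ECs, from 0.720 to 10.5 RPKM in Flt3+/+ and from 0.160 to 11.0 RPKM in Flt3ITD/ITD. The 2 genes lie 346 bases apart on chromosome 11, and 8.07% of the 51-base windows of Stat5a transcripts and 10.8% of those of Stat5b also occur in the other gene. The windows were taken from GENCODE transcripts, whereas the authors aligned to UCSC transcripts and discarded reads that were not unique. Reads from such windows may therefore be missing from these levels, which was not tested. The share of windows found in transcripts of any other gene was 4.52% for Socs2, 9.28% for Cish, 8.66% for Pim1 and 1.49% for Pim2, and none was found for Socs1, Socs3 and Pim3. RefSeq places Gm33230 over Socs2, Gm26885 over Pim1 and Gm33049 over Pim3, and without strand information reads of such overlapping genes cannot be told apart.

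Genes around STAT5 were read from a list of 53 genes, made up of other SOCS genes, upstream receptors, Janus kinases, other STAT genes, inhibitors and other STAT5 targets. Between genotypes, edgeR called 0 of 41 tested in ECs, 0 of 42 tested in MSCs and 0 of 52 tested in MNCs, with 2, 1 and 7 at an unadjusted p-value below 0.05, where 10.4% of all tested genes in MNCs had such a p-value. DESeq2 called 0 in ECs, Ptpn2 in MSCs (log2 fold change 1.11, DESeq2 adjusted p = 0.0431), and Flt3 (1.06, DESeq2 adjusted p = 0.0889) and Il6st (1.39, DESeq2 adjusted p = 0.0563) in MNCs. Among all genes, DESeq2 called 362 in ECs, 193 in MSCs and 327 in MNCs. Flt3 in MNCs had a log2 fold change of 1.06 (SE 0.33, edgeR adjusted p = 0.415) and a mean of 10.8 ± 3.23 RPKM in Flt3ITD/ITD against 4.74 ± 2.44 RPKM in Flt3+/+ (SD, n = 4 each). The other SOCS genes, Socs4 to Socs7, had a median log2 fold change of 0.49 in MNCs, 0.49 in MSCs and -0.36 in ECs, where the medians over all tested genes were -0.01, 0.03 and -0.01.

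Between populations of Flt3+/+ mice, genes of the list were called in both directions. Against MNCs, 12 of 52 were called higher and 12 lower in ECs, together 46.2% against 37% of all tested genes. In MSCs, 10 were called higher and 20 lower than in MNCs, together 57.7% against 35.9%. Against MSCs, 14 were called higher and 6 lower in ECs, together 38.5% against 24.4%. By role, 2 of 13 tested upstream receptors were called higher and 8 lower in MSCs than in MNCs, and 6 were called higher and 1 lower in ECs than in MSCs. The inhibitors had calls both ways, with 3 of 12 higher and 3 lower in ECs and 3 higher and 4 lower in MSCs, both against MNCs. The other STAT5 targets also did, with 5 of 14 higher and 3 lower in ECs and 4 higher and 5 lower in MSCs. In Flt3ITD/ITD mice, 11 of the 52 were called higher and 13 lower in ECs than in MNCs (46.2%, against 33.7% of all tested genes), 10 higher and 16 lower in MSCs than in MNCs (50%, against 30.9%), and 11 higher and 6 lower in ECs than in MSCs (32.7%, against 23%). Ghr, the growth hormone receptor, which signals through JAK2 and STAT5, was at 16.04 ± 4.37 RPKM in Flt3+/+ ECs and 31.7 ± 4.35 RPKM in Flt3+/+ MSCs (SD, n = 5 each), and reached at most 0.0100 RPKM in Flt3+/+ MNCs. It was called higher than in MNCs in both (edgeR adjusted p = 5.78e-07 in ECs and 2.86e-07 in MSCs). Igf1, a growth hormone target, followed the same order, with means of 22.0 RPKM in ECs, 204 RPKM in MSCs and 0.473 RPKM in MNCs of Flt3+/+ mice (log2 fold change against MNCs 5.64 in ECs and 9.10 in MSCs, edgeR adjusted p = 0.000938 and 6.75e-05). Single Flt3+/+ EC libraries ran from 1.45 to 44.2 RPKM for Igf1. Ghr and Igf1 had their highest means in MSCs, whereas Socs2 had its highest in ECs. In Flt3ITD/ITD MNCs, the means were 16.3 RPKM for Socs2, 0.0275 RPKM for Ghr and 0.195 RPKM for Igf1. Ghr and Igf1 come from a list with calls in both directions, and a link to Socs2 was not tested.

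Other members of the list were called between populations of Flt3+/+ mice. Id1 was at 348 RPKM in ECs and 9.69 RPKM in MNCs (edgeR adjusted p = 3.69e-06), and Spry2, an inhibitor of receptor tyrosine kinase signaling, was at 152 RPKM in MSCs and 4.42 RPKM in MNCs (edgeR adjusted p = 1.21e-05). Ptprc, Ptpn6, a phosphatase of blood cells, and Osm, a cytokine gene that STAT5 induces, were called lower in ECs than in MNCs. Stat4 and Flt3 had no count in any Flt3+/+ MSC library and means of 16.6 and 4.74 RPKM in Flt3+/+ MNCs. Between ECs and MSCs, Il2rg, the shared cytokine receptor chain, was at 254 ± 101 RPKM in ECs and 2.13 ± 4.76 RPKM in MSCs (edgeR adjusted p = 0.0165), and Bcl6 was at 1.10 RPKM in ECs and 12.8 RPKM in MSCs (edgeR adjusted p = 0.0596). Epor and Stat4 were called higher and Ptpn6 and Kit lower in ECs than in MSCs, each with means of at most 3.61 RPKM. These calls rested on few libraries. In Flt3+/+ ECs, Epor had a median of 0.04 RPKM and a highest value of 17.9 RPKM, and Stat4 had 0 and 1.02 RPKM. In Flt3+/+ MSCs, Ptpn6 had a median of 0 and a highest value of 6.49 RPKM, and Kit had 0 and 5.3 RPKM.

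The genes most like Socs2 over the 28 libraries were Tns1 (Pearson r = 0.909), Srsf2 (0.903), Ece1 (0.896), 2700089E24Rik (0.887) and Il6st (0.887), by log2 RPKM with 1 added, among 13726 genes with a mean of at least 1 RPKM. The libraries fall into 3 populations, and these values follow mainly the order of the populations, so they are given as a description without a test. Ece1 was at a median of 191 RPKM in Flt3+/+ ECs, 85.7 in Flt3+/+ MSCs, 5.43 in Flt3+/+ MNCs and 14.1 in Flt3ITD/ITD MNCs. Il6st, which encodes the gp130 receptor chain, had medians of 76.2, 24.6, 2.90 and 8.27 RPKM in the same groups. Tns1 had medians of 25.1, 11.9, 0.870 and 2.56 RPKM. Of the 5 genes, 3 (Ece1, Il6st and Tns1) lay wholly higher in Flt3ITD/ITD than in Flt3+/+ MNCs and 2 (Srsf2 and 2700089E24Rik) overlapped, where 5.72% of all tested genes lay wholly higher. The genes were chosen for likeness to Socs2 over these same libraries, so nothing is read from that count. With 0.1 in place of 1 added to the RPKM, 2 of these 5 genes, Tns1 and Srsf2, were again among the first 5.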

How the data were processed

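RNA sequencing libraries were assigned to population, genotype and number from their labels. The authors aligned 51-base single-end reads with Bowtie to mm10 transcripts, discarded reads without a unique place and estimated counts with RSEM (versions were not given in the sources used here). The authors deposited these counts as whole numbers, without normalization, and RPKM for the same genes and libraries. Discarding reads without a unique place lowers genes that share sequence with others. Total counts ran from 6377013 to 33880743 per library. Counts were used for tests and RPKM for levels and for the rule on fold.

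Genotypes within a population, populations within a genotype and the difference between the genotype contrasts of ECs and MSCs were fitted over all genes with the quasi-likelihood test of edgeR 4.0.16 (R 4.3.3), with TMM normalization, the package's filter on low counts and no covariates. The fit of populations used all 3 groups of 1 genotype. Adjustment for the number of genes followed Benjamini and Hochberg, and p-values measure the spread between these libraries. Calls required both an adjusted p-value under 0.1 and mean RPKM that differed by 1 or more on the log2 scale. The contrast between ECs and MSCs in genotype effect used the adjusted p-value alone. Alternatives were DESeq2 1.42.0, RLE size factors, no filter, no fold rule, a block for library number, each library left out, and, added after the data were seen, fits within MNC libraries 1 and 2 or 3 and 4 and fits of Flt3ITD/ITD populations without 2 libraries. The code was tested on simulated counts.

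The 9 members and all lists were chosen with earlier results of these data known. All 9 members were named in every comparison, together with up to 3 called genes of the STAT5 list with the largest rise and fall, Flt3, and the 5 genes most like Socs2. Same-numbered libraries of the 2 genotypes had weak correlations of their deviations from group means (-0.08 to 0.09 over 14 pairs, 0 above 0.1). The MSC pairs were all positive (0.035 to 0.095), the EC pairs ran from -0.018 to 0.048 and the MNC pairs from -0.084 to 0.048. The labels do not say that a number marks a mouse or a day, and the number was fitted as a block only among the alternatives.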

Additional observations from a re-analysis of the deposited data

Results flagged for a closer look

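Each of the 54 sets made by 1 of the 9 genes in 1 of the 6 groups was searched for a single library far from the others, by the gap to its nearest neighbor relative to the whole range (Dixon's critical value at 95%). Of these, 8 held such a library. The rate of about 5% by chance holds for normally distributed values, and the rule was applied to RPKM without a log scale, so the count is not set against that rate. In Flt3+/+ ECs, they were library 2 for Socs1 (2.74 RPKM), library 5 for Cish (16.44 RPKM), library 4 for Pim2 (7.22 RPKM) and library 4 for Stat5a (10.96 RPKM). In Flt3ITD/ITD ECs, it was library 3 for Stat5b (11.01 RPKM). In MNCs, they were Flt3+/+ library 1 for Socs3 (5.51 RPKM) and Pim3 (0.76 RPKM), and Flt3ITD/ITD library 2 for Socs3 (3.2 RPKM). All 8 were the highest library of their group. No set of Socs2 values and none of Pim1 values held such a library.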

How the results depend on the processing

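Over the settings tried, 1084 values stayed the same, 38 changed sign, 15 gained a call, 3 lost one and 5 moved further. These were fitted values of single members, together with the highest correlation with Socs2 in its alternatives. Staying the same meant keeping the sign and the side of the threshold. Between genotypes in MNCs it meant moving by less than the spread between libraries, so sign changes there are not among the 38. The Socs3 and Pim3 calls against MNCs in Flt3+/+ mice held in all settings. Where a value changed, the cause was not tested.

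With DESeq2, the number of genes called between genotypes among all genes was 362 in ECs (1 by edgeR), 193 in MSCs (4), 327 in MNCs (2) and 449 for the difference between ECs and MSCs (1). Without a filter on low counts it was 0 in ECs and 2 in MSCs. With 1 library left out it ran from 0 to 0 in ECs, from 0 to 2 in MSCs, from 0 to 1 in MNCs and from 1 to 4 for the difference. For ECs against MSCs, the number of members called ran from 0 to 2 and that of all genes from 3254 to 3822. Within MNC libraries 1 and 2 alone, 0 genes in all were called between genotypes, and within libraries 3 and 4 alone 940 genes. No count of members called between genotypes in MNCs is given, because Socs2 was chosen from that comparison. Below, counts of members in comparisons with MNC libraries include Socs2, which was chosen from them, and nothing is read from its share in them.

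Fitting the library number as a replicate block, which the labels do not tie to a mouse, called 0 genes between genotypes in every population. Socs2 had a fitted log2 fold change of 3.85 between the genotypes of MNCs with this block. With the block, 3159 genes in all were called for ECs against MSCs and, against MNCs, 5133 in ECs and 5187 in MSCs. Of the members, 1 was called for ECs against MSCs (Socs1) and, against MNCs, 5 in ECs (3 without the block) and 6 in MSCs (4). The added calls were Pim2, lower by -5.50 in ECs (edgeR adjusted p = 0.0860) and -5.18 in MSCs (edgeR adjusted p = 0.0347), and Stat5b, lower by -2.04 (edgeR adjusted p = 0.0956) and -2.41 (edgeR adjusted p = 0.0559). Log2 fold changes that changed sign with the block were those of Socs3 between genotypes in MSCs (-0.10) and, for ECs against MSCs, of Cish (-1.19) and Pim2 (-0.32).

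In Flt3ITD/ITD in place of Flt3+/+ libraries, 1 member and 3599 genes in all were called for ECs against MSCs. Signs changed for Socs1 (0.80), Pim2 (-0.71) and Stat5b (-0.55) in ECs against MSCs, for Cish in ECs against MNCs (1.66), and for Pim1 (-0.012) and Stat5a (-0.17) in MSCs against MNCs. Without Flt3ITD/ITD EC library 2 and MSC library 5 as well, 1 member and 2981 genes in all were called for ECs against MSCs. The values were 0.15 for Socs1, -0.72 for Pim2, 1.45 for Cish, -0.039 for Pim1 and -0.12 for Stat5a.

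With 1 library left out, log2 fold changes between genotypes crossed 0 for Socs3 (-0.41 to 0.025), Pim1 (-0.10 to 0.40) and Stat5b (-2.39 to 0.48) in ECs, and for Socs2 (-0.061 to 0.17), Socs3 (-0.22 to 0.43), Cish (-1.15 to 0.037), Pim1 (-0.52 to 0.034) and Pim3 (-0.082 to 0.57) in MSCs. In MNCs they crossed 0 for Socs3 (-3.24 to 0.092), Cish (-0.28 to 0.34), Pim1 (-0.71 to 0.23), Pim2 (-0.46 to 0.39) and Stat5b (-0.49 to 0.042). For ECs against MSCs they crossed 0 for Cish (-3.03 to 0.80), Pim2 (-4.40 to 3.12) and Stat5b (-0.66 to 0.69), for ECs against MNCs for Socs1 (-0.078 to 2.496), and for MSCs against MNCs for Pim1 (-0.16 to 0.56). The difference between the genotype contrasts of ECs and MSCs crossed 0 for Socs2 (-0.046 to 0.42), Socs3 (-0.59 to 0.077), Pim2 (-3.86 to 3.72) and Stat5b (-2.81 to 0.11).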
